A study of Musca domestica with 6 samples.

Results

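Heat shock proteins and chaperones were followed as a group of 76 genes in larvae of the housefly, Musca domestica. The 76 are the protein-coding genes whose annotated protein description names a heat shock protein, a DnaJ protein, a subunit of T-complex protein 1 or an alpha-crystallin, with heat shock factor left out, among 14227 genes in all. RNA was sequenced from whole bodies of larvae in instar 2, collected 24 h after injection of double-stranded RNA, with 3 libraries in each group. Larvae of the dsMdCht9 group received RNA directed at MdCht9, a gene for a chitinase, an enzyme that breaks down chitin, and larvae of the control group received RNA directed at GFP, a fluorescent protein of jellyfish that flies lack. Both groups were thus injected with double-stranded RNA, and libraries of larvae without injection were not analysed here. No annotation used here names MdCht9, so the depletion of its RNA was not checked.

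Chaperones bind unfolded or partly folded proteins and prevent their aggregation or help them fold. Inducible heat shock genes, chiefly Hsp70 and the small heat shock proteins, are strongly transcribed by heat shock factor after heat, wounding or other insults. The inducible Hsp70 genes are nearly silent at rest in flies. Constitutive chaperones, such as the Hsc70 cognates, the DnaJ co-chaperones, the CCT chaperonin of the cytosol and the chaperones of the mitochondrion, serve protein folding and import in all cells.

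By these roles the group was divided into 18 inducible genes, made up of 6 inducible Hsp70 genes and 12 small heat shock genes, and 45 constitutive genes, made up of 6 Hsp70 cognates, 27 DnaJ proteins, 8 CCT subunits and 4 mitochondrial chaperones. The single Hsp90 gene, 4 cofactors and 8 other genes were kept apart. The classes follow family names, and no heated larvae were used here to test them. The DnaJ family was counted as constitutive as a whole. However, LOC101897347 and LOC101890032, described below, carry the name dnaJ protein homolog 1, which in Drosophila belongs to an Hsp40 that responds to heat. The annotated domain or description was used to correct 9 assignments after the values were seen, so it is no check of the families. All 12 small heat shock genes carried the HSP20 domain, all 6 inducible Hsp70 genes and all 6 cognates the HSP70 domain, and 21 of the 27 DnaJ genes had DnaJ as their first listed domain. The HSP20 domain was also listed for LOC101897440, kept among the other genes, and for hsp20 and LOC101898340, outside the group. None of these was counted as inducible, and none was high in 1 library alone.

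Libraries held 12876941 to 15439421 counted reads, of which the 76 genes took 0.941% to 1.35%. Values per library are CPM, that is, reads per library of one common scaled size. Markers of muscle, cuticle, gut, fat body, neurons and haemocytes were present in every library. The first principal component, with 49.3% of the variance, placed dsMdCht9 replicate 3 at 48.2 and dsGFP replicate 3 at 40.2, against -33.5 to -3.04 for the other 4 libraries, so results below are also given without these libraries where that matters. Whether each library came from its own pool of larvae is not stated in the labels, and p-values measure only the spread between these libraries, which may be technical.

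**Figure D1:**
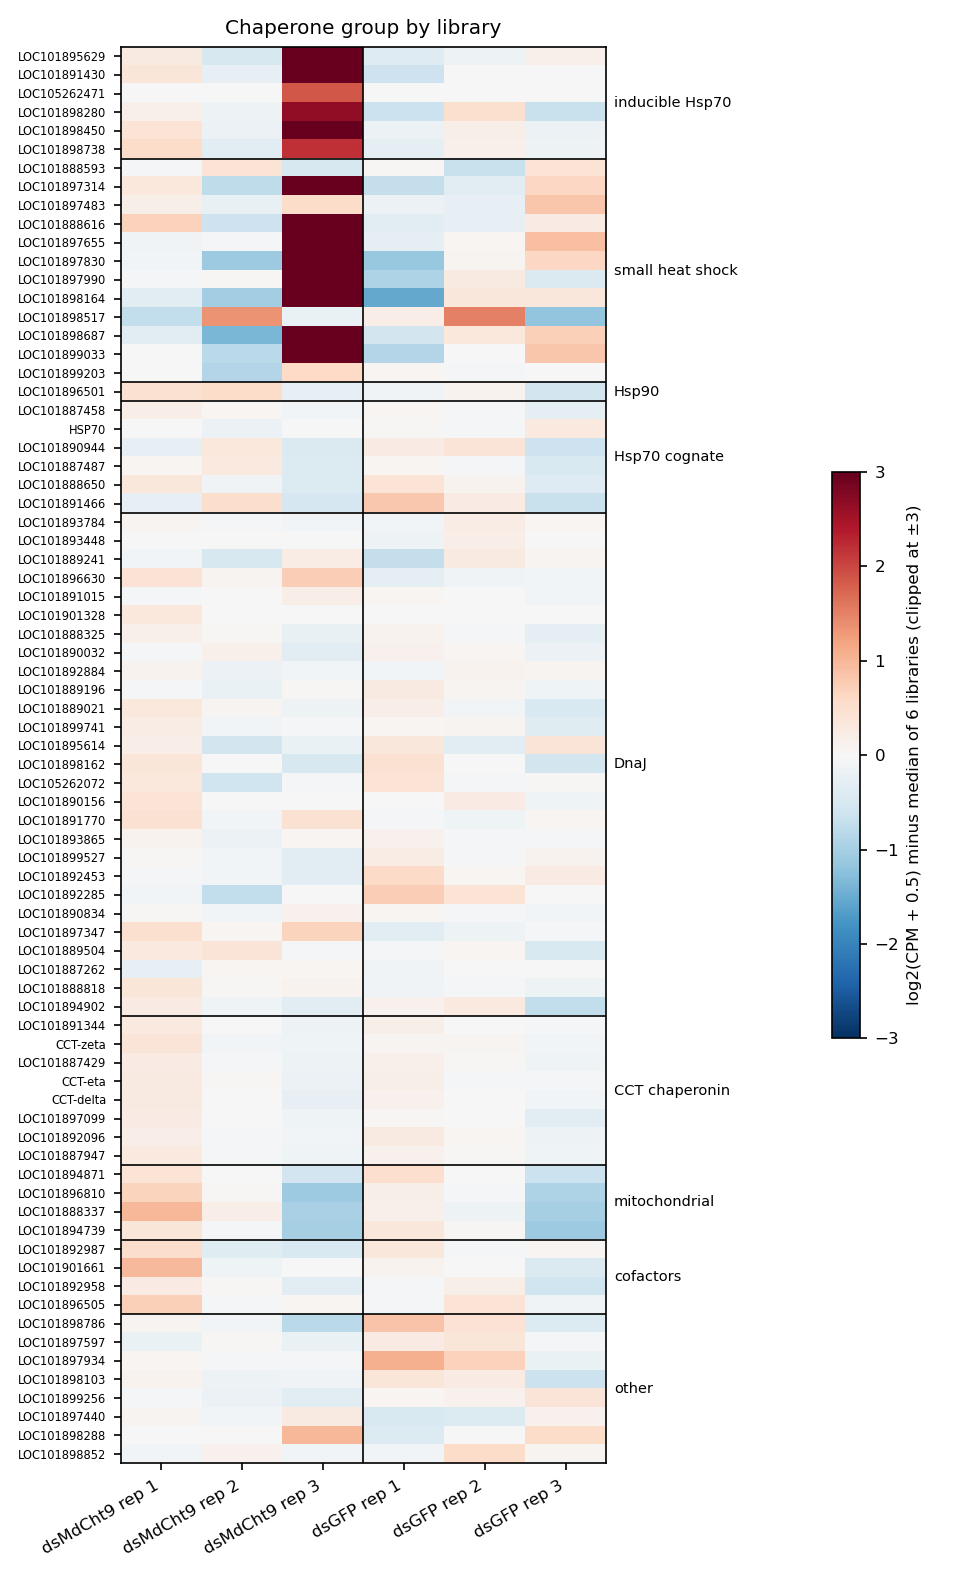
Each row is one of the 76 genes, ordered by family, and each column a library. Colour gives log2(CPM + 0.5) minus the median of the 6 libraries for that gene, clipped at 3 in both directions, and the deep red block in dsMdCht9 replicate 3 includes 13 of the 18 inducible genes whose highest library had at least 2 times the CPM of the next.

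Of the 18 inducible chaperone genes 13 were high in one library, dsMdCht9 replicate 3, and low in the other 5. The 6 inducible Hsp70 genes together reached 176.9 CPM in that library, against 18.0 and 9.90 CPM in the other dsMdCht9 libraries and 9.16 to 13.7 CPM in dsGFP. The 12 small heat shock genes together reached 451.0 CPM there, against 60.9 and 41.9 CPM in the other dsMdCht9 libraries and 37.5, 61.7 and 89.8 CPM in dsGFP. The level in dsMdCht9 replicate 3 was 9.85 times that of the next highest library for Hsp70 and 5.02 times for the small heat shock genes.

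Outside that library the groups were interleaved. The mean of the Hsp70 sum in dsMdCht9 was 5.75 times that in dsGFP with all libraries and 1.17 times without dsMdCht9 replicate 3. For the small heat shock genes the same ratio was 2.93 with all libraries and 0.816 without that one. Without both libraries numbered 3 the ratio was 1.22 for Hsp70 and 1.04 for the small heat shock genes. In libraries of equal number, the summed Hsp70 level in dsMdCht9 exceeded that in dsGFP by 0.97 on the log2 scale for number 1, was below it at -0.47 for number 2, and exceeded it by 3.79 for number 3. The small heat shock genes gave 0.70, -0.56 and 2.33 in the same order.

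**Figure D2:**
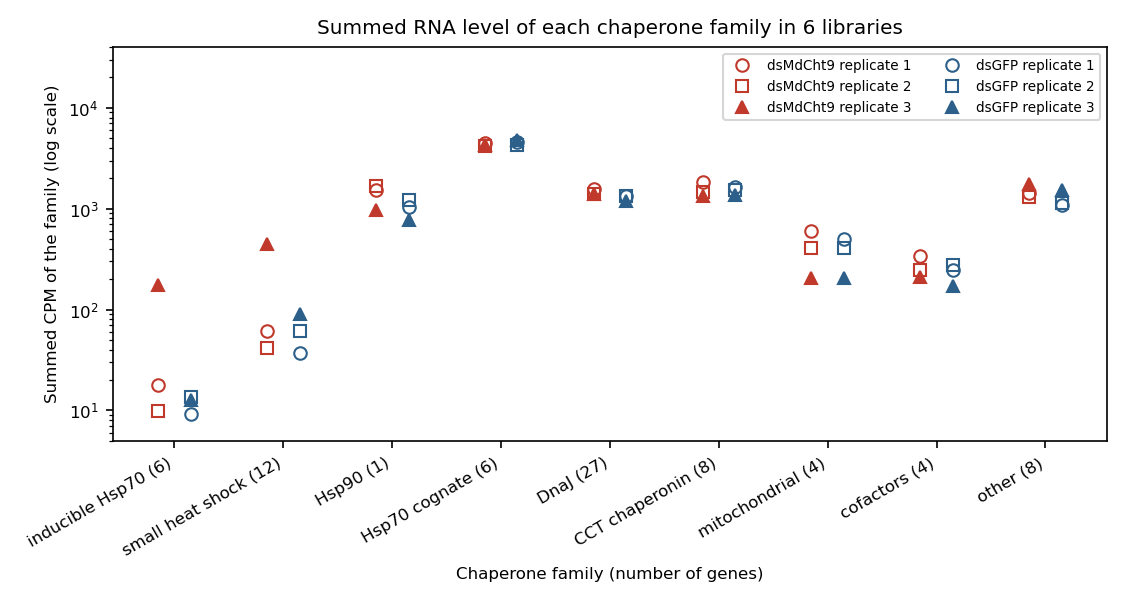
Summed CPM of each chaperone family, on a log scale, in 3 dsMdCht9 libraries (red) and 3 dsGFP libraries (blue), with filled triangles for the libraries numbered 3. The red triangle stands at 176.9 CPM for inducible Hsp70 and 451.0 CPM for small heat shock genes, far above the other 5 libraries, while for mitochondrial chaperones both triangles lie below all other libraries.

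A single-library excess was defined as a highest library with at least 2 times the CPM of the next and with at least 30 reads. Of 9912 genes in the whole table with that many reads in some library, 1.64% had such an excess in any library, and 0.343% had it in dsMdCht9 replicate 3. Of the 76 chaperone genes 71 had enough reads, and 13 had an excess. All 13 were inducible genes, out of 16 inducible genes with enough reads, and in all 13 the high library was dsMdCht9 replicate 3. Of the 13, 5 reached 30 reads in that library alone and so entered the count only through it. Among genes with 30 reads in at least 2 libraries, a limit chosen after the data were seen, 8 of 64 chaperone genes had the excess, all 8 in dsMdCht9 replicate 3, beside 0.199% of 9561 genes. Among the 44 constitutive genes with enough reads, 0 had an excess in any library.

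At ratios of 3 and above, most of the genes high in this library alone were chaperones. At least 2 times the next library was reached there by 34 genes of the whole table, of which 13 were chaperone genes (38.2% of the 34 and 17.1% of the 76). At least 3 times was reached by 20 genes, of which 13 were chaperone genes. At 5 times or more, 12 genes of the whole table remained, which is 0.121% of the genes with enough reads, and all 12 were heat shock genes of the inducible class. At 10 times or more, 6 genes remained, again all of this class. Some of these genes reached 30 reads in that library alone and so entered only through it. Among genes with 30 reads in at least 2 libraries, 7 remained at 5 times and 3 at 10 times, all of the inducible class.

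Hsp70 binds exposed hydrophobic stretches of unfolded proteins in an ATP-driven cycle. In the order of replicates 1, 2 and 3, kept for every gene below, LOC101891430 (heat shock protein 70) stood at 5.13, 3.19 and 76.9 CPM in dsMdCht9 and at 2.38, 3.95 and 3.86 CPM in dsGFP. One library of 6 was high and the groups overlapped below it. Its log2 fold change was 3.06 ± 1.24 (SE), with an unadjusted p of 0.0455 and an adjusted p of 0.999 by edgeR's quasi-likelihood test with Benjamini-Hochberg adjustment, and it was 0.30 without dsMdCht9 replicate 3.

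LOC101895629 (heat shock protein 70), which has the same best-matching database protein as LOC101891430, stood at 5.45, 3.04 and 66.9 CPM in dsMdCht9 and at 3.24, 3.95 and 4.93 CPM in dsGFP. The profile of the pair was alike in every library. The counting of reads that match both copies is not known here, so the pair is uncertain gene by gene. The log2 fold change of LOC101895629 was 2.63 ± 1.16, and 0.08 without dsMdCht9 replicate 3.

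LOC101898738 (major heat shock 70 kDa protein Ab-like) stood at 6.64, 3.35 and 21.8 CPM in dsMdCht9 and at 3.46, 4.91 and 3.92 CPM in dsGFP. The same library was high, by 3.29 times the next, and the other 5 overlapped. The log2 fold change was 1.37 ± 0.66, and 0.30 without that library.

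The other 3 inducible Hsp70 genes had too few reads to be tested. LOC101898280 (major heat shock 70 kDa protein Ba-like) had 8, 4 and 70 reads in dsMdCht9 and 1, 11 and 1 in dsGFP. LOC101898450 (heat shock protein 70-like) had 4, 0 and 66 reads in dsMdCht9 and 0, 2 and 0 in dsGFP. All 18 reads of LOC105262471, a partial Hsp70-like gene, came from dsMdCht9 replicate 3, which is under the minimum of 30 reads. All 6 inducible Hsp70 genes thus had their highest value in the same library.

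Small heat shock proteins carry an alpha-crystallin domain, need no ATP and hold unfolded proteins until Hsp70 can act on them. LOC101897314 (heat shock protein 23) stood at 18.3, 8.34 and 147.7 CPM in dsMdCht9 and at 8.72, 11.5 and 22.5 CPM in dsGFP. LOC101898164 (heat shock protein 23) stood at 7.07, 4.13 and 83.6 CPM in dsMdCht9 and at 2.81, 11.7 and 11.6 CPM in dsGFP. In both genes the third dsMdCht9 library was high and the remaining dsMdCht9 libraries lay among or near the dsGFP values. Their log2 fold changes were 2.03 ± 1.06 and 1.86 ± 1.19 with all libraries, and -0.09 and -0.62 without dsMdCht9 replicate 3.

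A pair of further genes described as Hsp23-like behaved in the same way. LOC101899033 stood at 2.32, 1.09 and 39.7 CPM in dsMdCht9 and at 1.01, 2.25 and 4.49 CPM in dsGFP. LOC101897990 stood at 1.25, 1.32 and 18.9 CPM in dsMdCht9 and at 0.433, 1.64 and 0.822 CPM in dsGFP. Their log2 fold changes were 2.46 ± 1.35 and 2.87 ± 1.22, and without the high library they were -0.59 and 0.42.

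Genes described as Hsp27 or Hsp27-like did not all share the excess. LOC101897830 (heat shock protein 27) stood at 7.07, 3.27 and 76.3 CPM in dsMdCht9 and at 3.17, 8.11 and 12 CPM in dsGFP. LOC101888616 (heat shock protein 27-like) stood at 1.13, 0.156 and 11.5 CPM in dsMdCht9 and at 0.288, 0.341 and 0.696 CPM in dsGFP. LOC101897655 (heat shock protein 27-like), which was not tested, had 1, 1 and 81 reads in dsMdCht9 and 0, 2 and 10 in dsGFP. These 3 were high in the one library. The next highest was dsGFP replicate 3 in LOC101897830 and LOC101897655, as in LOC101897314, LOC101898687 and LOC101899033. It was dsMdCht9 replicate 1 in LOC101888616 and dsGFP replicate 2 in LOC101897990 and LOC101898164.

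The remaining Hsp27 genes were not high in dsMdCht9 replicate 3 alone. LOC101897483 (heat shock protein 27-like) stood at 19.5, 14.9 and 25.7 CPM in dsMdCht9 and at 15.4, 14.5 and 31.4 CPM in dsGFP, highest in the 2 libraries numbered 3. LOC101898517 (heat shock protein 27) stood at 1.31, 7.17 and 2.14 CPM in dsMdCht9 and at 2.96, 8.11 and 0.822 CPM in dsGFP, highest in the 2 libraries numbered 2. LOC101888593 (heat shock protein 27) had 6, 9 and 2 reads in dsMdCht9 and 6, 1 and 11 in dsGFP and was not tested. In these genes the groups overlapped, and the log2 fold changes of the tested pair were -0.03 ± 0.35 and -0.17 ± 0.91.

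The remaining small heat shock genes were LOC101898687 and LOC101899203. LOC101898687 (heat shock protein 22, which in Drosophila is sent to the mitochondrial matrix) stood at 1.19, 0.312 and 37.1 CPM in dsMdCht9 and at 0.937, 2.11 and 2.97 CPM in dsGFP. It had the largest ratio of a tested small heat shock gene to the next library, 12.5, and its log2 fold change moved from 2.66 ± 1.55 to -1.37 when that library was left out. LOC101899203 (heat shock protein 67B3) stood at 1.31, 0.468 and 2.21 CPM in dsMdCht9 and at 1.37, 1.23 and 1.26 CPM in dsGFP, without an excess of 2 times.

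In the control group, dsGFP replicate 3 also had the highest summed level of small heat shock genes, 1.81 times the mean of dsGFP replicates 1 and 2, while its inducible Hsp70 sum was 1.12 times that mean. The library numbered 3 in dsMdCht9 had 8.78 and 12.7 times the mean of its own group's other libraries for the same sums. Muscle and cuticle markers were low in dsMdCht9 replicate 3, at 0.614 and 0.572 of the median of the other 5 libraries. The same ratio was 0.745 for gut, 0.75 for haemocyte, 0.96 for fat body and 0.979 for neuron markers. Summed over 17 genes, muscle markers ranged from 16672 to 29038 CPM in dsMdCht9 and from 19549 to 28911 CPM in dsGFP. Summed over 70 genes, cuticle markers ranged from 18151 to 35929 CPM in dsMdCht9 and from 23807 to 45767 CPM in dsGFP. The lowest sum of both came from dsMdCht9 replicate 1. The part of tissue make-up, handling or depth in the excess was not tested, and in whole larvae fewer cells of a type and less RNA per cell cannot be told apart.

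Most of the small heat shock genes lie together. On scaffold NW_004767649.1, in the coordinates of the deposited table, 12 chaperone genes lie between 1406395 and 1489863, a span of 83.5 kb. They are 11 small heat shock genes and LOC101898852, a gene of the 67B2 kind with at most 4 reads in a library. Of the 12, 8 had the excess in dsMdCht9 replicate 3, and they lie on both strands. LOC101897483, without an excess, starts at 1410783 between LOC101897314 and LOC101888616, which both had one. A gene that lies within the cluster but outside the group, LOC101898340 (described as enolase-phosphatase E1, with an HSP20 domain listed), stood at 32.6, 21.9 and 39.1 CPM in dsMdCht9 and at 23.2, 20.7 and 46.4 CPM in dsGFP and had no excess. On the minus strand the gene LOC101896956 (kynurenine formamidase, 1382205 to 1428563) spans 7 of the small heat shock genes, and with 4 to 11 reads in a library it had no excess. Whether counting used strand is not given, so reads of overlapping genes may have been divided or left out.

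A second cluster holds Hsp70 genes. On scaffold NW_004766576.1, 7 chaperone genes lie between 29097 and 86839, a span of 57.7 kb, and 3 of them are inducible Hsp70 genes, all with the excess. The other 4 are genes of the 67B2 kind, at 0.730 to 0.928 of the median of the other libraries, with no excess. The gene LOC101897773 (XPD subunit of the transcription factor TFIIH) lies between them and stood at 5.63, 6.16 and 5.53 CPM in dsMdCht9 and at 7.21, 5.66 and 6.26 CPM in dsGFP. The remaining inducible Hsp70 genes, LOC101891430, LOC101895629 and LOC105262471, are annotated on other scaffolds. LOC101891430 and LOC101895629 had the excess, and LOC105262471 had too few reads for it. Where these scaffolds lie relative to the clusters is not known here.

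**Figure D3:**
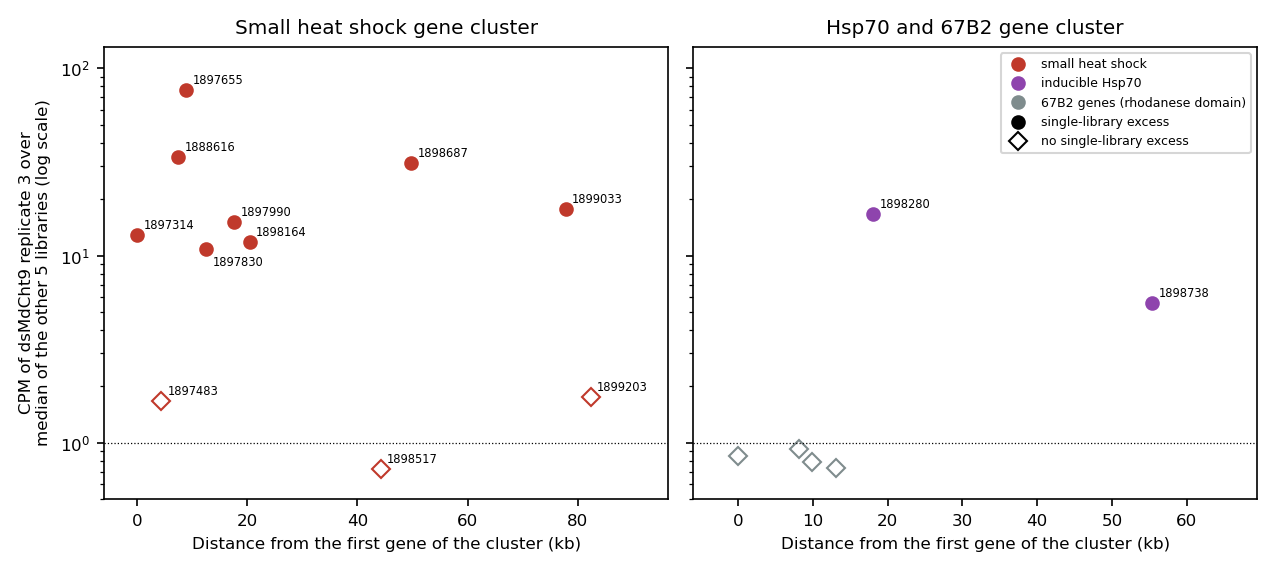
Each point is a gene, placed by its distance in kb from the first gene of its cluster, with the CPM of dsMdCht9 replicate 3 over the median of the other 5 libraries on a log scale. Filled circles mark genes with a single-library excess and open diamonds genes without, labels are gene names without the leading LOC10, and LOC101898450 and LOC101898852 are not drawn because a ratio of 0 or over 0 has no place on the axis. Genes with and without an excess are interspersed along the small heat shock cluster, and in the other cluster the 4 genes with a rhodanese domain lie just under 1.

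Against dsGFP, over all 6 libraries, 13 of the 18 inducible genes could be tested, and 11 had a positive and 2 a negative log2 fold change, with a median of 2.03 and a median SE of 1.17. The groups overlapped in all of them. Without dsMdCht9 replicate 3 the median over the same 13 genes was -0.09. Of the 10 tested genes with the excess, 5 then had a negative log2 fold change. No inducible gene passed edgeR's quasi-likelihood test, with adjusted p-values of 0.999.

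**Figure D4:**
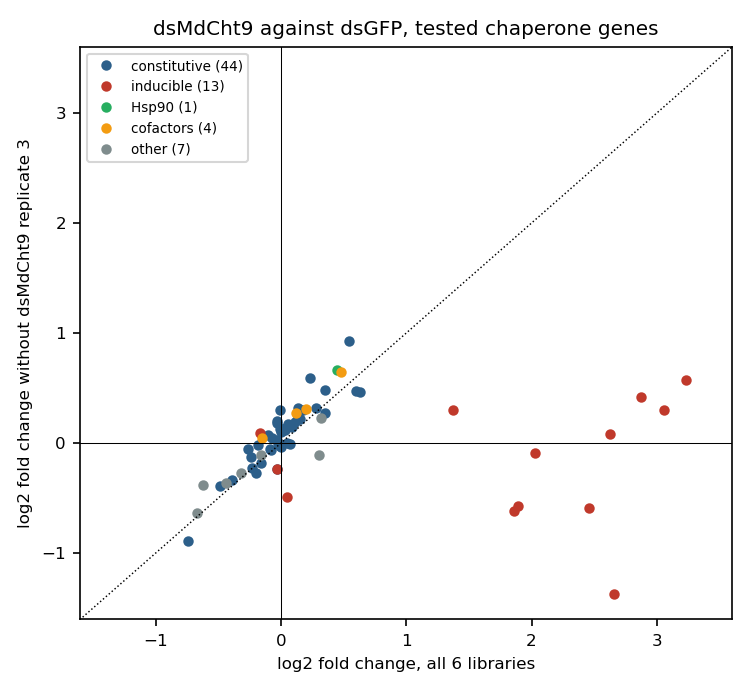
Each point is one of 69 tested chaperone genes, with the log2 fold change of dsMdCht9 against dsGFP over all 6 libraries on the x axis and the same without dsMdCht9 replicate 3 on the y axis, and the dotted line marks equal values. Most of the 44 constitutive genes lie near the line, and the 4 mitochondrial chaperones lie above it, with medians of 0.11 on the x axis and 0.44 on the y axis. The inducible genes with values of 1.37 to 3.23 on the x axis lie between -1.37 and 0.57 on the y axis.

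Hsp83, the fly Hsp90, is made at rest and raised by heat, and helps kinases and hormone receptors, the ecdysone receptor among them, to reach their active form. LOC101896501 (heat shock protein 83) stood at 1547, 1658 and 958.7 CPM in dsMdCht9 and at 1047, 1226 and 778.7 CPM in dsGFP. The libraries numbered 3 were the lowest of their groups, the opposite of the inducible genes, and the groups overlapped. In libraries of equal number the dsMdCht9 value was higher in 3 of 3, by 0.56, 0.44 and 0.30 on the log2 scale. The log2 fold change was 0.45 ± 0.27 with an unadjusted p of 0.144 in edgeR's quasi-likelihood test. It was 0.43 ± 0.14 with an unadjusted p of 0.0197 and an adjusted p of 0.550 with the replicate number as a block. Without dsMdCht9 replicate 3 it was 0.66, with an unadjusted p of 0.0357 in edgeR's quasi-likelihood test, and did not pass after adjustment.

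The Hsp70 cognates differed little between the groups. The gene listed as HSP70, described as cognate 4, the main cytosolic Hsc70 that also uncoats clathrin vesicles, stood at 3080, 2753 and 3117 CPM in dsMdCht9 and at 3165, 3044 and 3777 CPM in dsGFP. The groups overlapped, with dsGFP replicate 3 highest, and the log2 fold change was -0.16 ± 0.17. LOC101887458 (cognate 3, or BiP, the Hsp70 of the endoplasmic reticulum) stood at 1109, 1013 and 915.0 CPM in dsMdCht9 and at 1015, 934.2 and 791.6 CPM in dsGFP, and its log2 fold change was 0.15 ± 0.18. The 6 cognates ranged from -0.26 to 0.15, and 0 had their highest value in dsMdCht9 replicate 3. The cytosolic cognate and the inducible Hsp70 genes thus differed in dsMdCht9 replicate 3, where cognate 4 was within the range of the other libraries.

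DnaJ proteins deliver unfolded clients to Hsp70 and stimulate its ATPase. LOC101897347 (dnaJ protein homolog 1, in Drosophila the name of an Hsp40 that responds to heat) stood at 66.6, 49.7 and 76.1 CPM in dsMdCht9 and at 37.7, 43.2 and 46.0 CPM in dsGFP. All 3 dsMdCht9 libraries lay above all 3 dsGFP libraries. The log2 fold change was 0.60 ± 0.19 with an unadjusted p of 0.0156 and an adjusted p of 0.999 in edgeR's quasi-likelihood test, and it was 0.47, with an unadjusted p of 0.0541, without dsMdCht9 replicate 3. A second gene described as dnaJ protein homolog 1, LOC101890032, stood at 65.7, 75.5 and 54.3 CPM in dsMdCht9 and at 74.8, 70.4 and 60.3 CPM in dsGFP, and its log2 fold change was -0.07 ± 0.17. Which of the pair, if either, corresponds to the heat-responsive gene of Drosophila was not examined.

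LOC101896630 (dnaJ homolog subfamily B member 12, which in mammals sits in the membrane of the endoplasmic reticulum) stood at 10, 7.64 and 12.4 CPM in dsMdCht9 and at 5.91, 6.68 and 6.83 CPM in dsGFP. The groups did not overlap. The log2 fold change was 0.63 ± 0.23 with an unadjusted p of 0.0263 in edgeR's quasi-likelihood test, and 0.46 without dsMdCht9 replicate 3. The other gene described as subfamily B member 12, LOC101891015, stood at 125.0, 132.9 and 151.3 CPM in dsMdCht9 and at 137.2, 129.0 and 124.4 CPM in dsGFP and had overlapping groups.

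LOC101888818 (dnaJ homolog subfamily A member 4, a cytosolic partner of Hsc70) stood at 578.5, 455.4 and 482.8 CPM in dsMdCht9 and at 412.8, 439.0 and 399.3 CPM in dsGFP. The groups did not overlap, but the lowest dsMdCht9 library was close to the highest dsGFP library, and the log2 fold change was 0.28 ± 0.17. LOC101889504 (dnaJ homolog subfamily C member 3, which in mammals works with BiP in the endoplasmic reticulum) stood at 123.1, 130.5 and 96.7 CPM in dsMdCht9 and at 96.0, 104.4 and 73.6 CPM in dsGFP. It was higher in dsMdCht9 in 3 of 3 libraries of equal number, though the groups overlapped, and its log2 fold change was 0.35 ± 0.20.

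The lowest DnaJ values relative to dsGFP came from a pair of overlapping genes. LOC101892453 (subfamily C member 30-like) stood at 5.63, 5.45 and 4.57 CPM in dsMdCht9 and at 8.94, 6.07 and 7.02 CPM in dsGFP, without overlap, with a log2 fold change of -0.49 ± 0.22. LOC101892285, annotated on the same strand within it and with the same best-matching protein, stood at 2.94, 1.71 and 3.17 CPM in dsMdCht9 and at 5.62, 4.36 and 3.16 CPM in dsGFP, and its log2 fold change was -0.74 ± 0.34. Reads of this pair cannot be assigned with certainty. Of the 27 DnaJ genes 26 were tested, 11 with a positive and 15 with a negative log2 fold change, and LOC101901328 (subfamily B member 13-like) was hardly detected, at 0.125 CPM in dsMdCht9 replicate 1 and 0 elsewhere.

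The CCT chaperonin is a ring of 8 different subunits that folds actin and tubulin. Its 8 subunits had similar profiles over the libraries, as the plot of the CCT and mitochondrial genes shows, and did not differ between the groups beyond their errors. Summed over the subunits the level was 1818, 1470 and 1348 CPM in dsMdCht9 and 1642, 1520 and 1362 CPM in dsGFP. Subunit zeta, CCT-zeta, stood at 335.1, 244.7 and 234.6 CPM in dsMdCht9 and at 272.4, 270.0 and 243.1 CPM in dsGFP, and subunit epsilon, LOC101897099, at 299.2, 252.1 and 229.7 CPM against 257.5, 248.9 and 200.1 CPM. In all 8 subunits the 2 libraries numbered 3 were the lowest 2, which held for 16.6% of all genes tested. Log2 fold changes ranged from -0.03 to 0.14 with SEs of 0.18 to 0.19.

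The mitochondrial chaperones import and fold proteins of the matrix, and they varied more between libraries than any other constitutive family. Hsp60, LOC101896810, which forms the folding chamber of the matrix, stood at 251.7, 160.0 and 73.8 CPM in dsMdCht9 and at 177.6, 154.1 and 82.7 CPM in dsGFP. Hsp10, LOC101888337, the lid of that chamber, stood at 60.1, 34.6 and 15 CPM in dsMdCht9 and at 33.6, 27 and 14.8 CPM in dsGFP. Cognate 5, LOC101894739, the Hsp70 of the matrix, stood at 245.4, 185.5 and 94.8 CPM in dsMdCht9 and at 241.1, 196.9 and 89.9 CPM in dsGFP.

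In these 3 genes and in LOC101894871 (heat shock protein 75 kDa, the mitochondrial Hsp90 known as TRAP1) the libraries numbered 3 were again the lowest 2. The 4 genes summed to 599.1, 411.1 and 204.4 CPM in dsMdCht9 and to 497.1, 409.5 and 207.1 CPM in dsGFP. The sums of libraries numbered 2 and 3 were close to those of the same number in the other group, at 0.01 and -0.02 on the log2 scale, while number 1 differed by 0.27. The groups overlapped. Log2 fold changes ranged from -0.03 to 0.54, with the largest for Hsp10 at 0.54 ± 0.53. The median of the 4 genes was 0.11, and 0.44 without dsMdCht9 replicate 3.

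**Figure D5:**
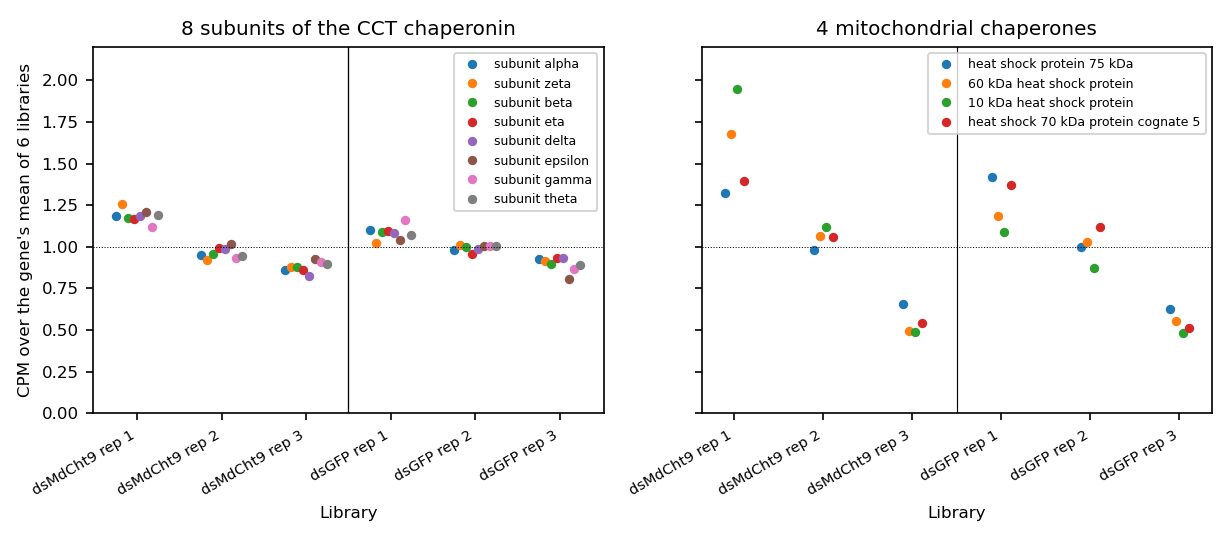
CPM of each gene divided by its mean over the 6 libraries, for the 8 CCT subunits (left) and the 4 mitochondrial chaperones (right), with points of a library set side by side. The libraries numbered 3 have the lowest points for every gene in both groups, and the mitochondrial genes spread more widely than the CCT subunits.

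Over all constitutive genes 44 of 45 were tested, 20 with a positive and 24 with a negative log2 fold change. Of the 44, 40 lay within 0.5 of 0 on the log2 scale, beside 9322 of all 10644 genes tested. The median of the constitutive genes was 0.00, as over all genes tested, and their range was -0.74 to 0.63. Of the 45 genes 22 had the 2 libraries numbered 3 as their lowest 2, beside 16.6% of all genes tested. Within the dsGFP group the median coefficient of variation was 13.1% for constitutive genes, 50.9% for inducible genes and 19.0% for all genes tested. Within dsMdCht9 the same medians were 16.4%, 142.3% and 19.8%, and over dsMdCht9 replicates 1 and 2 alone they were 15.4%, 50.9% and 15.8%.

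Among the cofactors, LOC101901661 (activator of 90 kDa heat shock protein ATPase homolog 1, which speeds the ATPase cycle of Hsp90) stood at 92.5, 43.0 and 47.3 CPM in dsMdCht9 and at 50.3, 46.2 and 34.2 CPM in dsGFP. One library, dsMdCht9 replicate 1, was high and the others overlapped, with a log2 fold change of 0.48 ± 0.32. LOC101892958 (Cdc37, which brings kinases to Hsp90) stood at 222.9, 191.4 and 148.9 CPM in dsMdCht9 and at 183.8, 211.4 and 124.0 CPM in dsGFP. Its groups overlapped too, with the libraries numbered 3 lowest.

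Of the 8 other genes, 6 are described as heat shock protein 67B2 and carry a rhodanese domain, the fold of sulfur transferases, and no alpha-crystallin domain. Among the 5 of them that were tested, the lowest log2 fold change was that of LOC101897934, at 5.32, 4.91 and 4.94 CPM in dsMdCht9 and at 11.2, 8.52 and 4.43 CPM in dsGFP, or -0.67 ± 0.34 as a log2 fold change. LOC101898786 stood at 34.0, 30.3 and 18.2 CPM in dsMdCht9 and at 58.9, 43.8 and 24.0 CPM in dsGFP. It was lower in dsMdCht9 in 3 of 3 libraries of equal number, and the log2 fold change was -0.62 ± 0.37, or -0.58 ± 0.13 with an unadjusted p of 0.00478 and an adjusted p of 0.424 in edgeR with the replicate number as a block. LOC101897597 and LOC101899256 were also lower in dsMdCht9 in every number, with log2 fold changes of -0.32 ± 0.17 and -0.44 ± 0.24, and in LOC101899256 the groups did not overlap. None passed the adjusted test.

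LOC101897440 (heat shock protein beta-1-like, with an HSP20 domain) stood at 1168, 1044 and 1338 CPM in dsMdCht9 and at 807.2, 830.8 and 1202 CPM in dsGFP. It had no single high library, being highest in both libraries numbered 3 as was LOC101897483 of the small heat shock cluster, and its log2 fold change was 0.32 ± 0.22. LOC101898288 (T-complex protein 11-like protein 1), which shares only part of its name with the chaperonin subunits, stood at 153.4, 152.1 and 308.2 CPM in dsMdCht9 and at 116.4, 155.2 and 225.2 CPM in dsGFP and was likewise highest in the libraries numbered 3.

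Taking the whole group, 69 of the 76 genes passed the filter on low counts and were tested among 10644 genes. The filter left out 7 genes, among them 3 inducible Hsp70 and 2 small heat shock genes, so counts over the tested genes do not cover the inducible class in full. By edgeR's quasi-likelihood test with Benjamini-Hochberg adjustment over all genes, 0 chaperone genes passed an adjusted p of 0.05, and over the whole table the share called was 0.0%, with a smallest adjusted p of 0.675. DESeq2 called 0.114% of all genes and 0 chaperone genes, but gave no p-value for 7 chaperone genes with the excess. With the replicate number as a block it called 0.818% of all genes and again 0 chaperone genes. Of the tested chaperone genes 37 had a positive and 32 a negative log2 fold change, with a median of 0.03 against 0.00 over all genes.

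At an unadjusted p under 0.05, edgeR gave 3 of 69 chaperone genes, LOC101897347, LOC101896630 and LOC101891430, all higher in dsMdCht9, beside 3.58% of all genes in either direction and 1.97% higher. With the replicate number as a block the count was 7, beside 8.34% of all genes, and 4 of the 7 were LOC101896501 (Hsp83), LOC101889504, LOC101898786 and LOC101888616. The groups did not overlap in 5 of 69 chaperone genes, 3 of them higher in dsMdCht9, beside 8.21% of all genes and 4.83% higher.

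Significance was marked for 5 chaperone genes in the authors' deposited table, all higher in dsMdCht9, beside 2.66% of all genes marked and 1.14% marked and higher. They were LOC101898280, LOC101898738, LOC101888616, LOC101896630 and LOC101897347, with unadjusted p-values in the authors' deposited table of 0.0250, 0.0269, 0.00377, 0.0289 and 0.0124. Of these, LOC101898280, LOC101898738 and LOC101888616 had the single-library excess in dsMdCht9 replicate 3. By edgeR without that library, LOC101898738 was at 0.30 and LOC101888616 at 0.57, and LOC101898280 had too few reads for the test. An adjusted p under 0.05 was given to 0 chaperone genes in the authors' deposited table. For 7 chaperone genes the authors' deposited table gave a log2 fold change but no p-value, and all 7 were inducible genes with the excess in dsMdCht9 replicate 3, among 19 such genes in the whole table. DESeq2, run on the deposited counts, left out the p-values of the same number of genes, 19, of which 7 were chaperone genes.

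Beyond the group, 61 genes of the wider folding network were listed by description, among them prefoldins, protein disulfide isomerases, prolyl isomerases and nucleoplasmins. Of these 56 were tested, 36 with a positive and 20 with a negative log2 fold change and a median of 0.07. By edgeR 0 had an unadjusted p under 0.05, beside 3.58% of all genes tested. With the replicate number as a block in edgeR the count was 2, beside 8.34% of all genes tested. These were LOC101891411 at 0.0462 and LOC101900572 at 0.0490, with adjusted p-values of 0.590 and 0.597. The smallest p-values belonged to LOC101900241 (peptidyl-prolyl cis-trans isomerase E), LOC101899169 (endoplasmin, the Hsp90 of the endoplasmic reticulum), LOC101899370 (stress-induced-phosphoprotein 1, which links Hsp70 to Hsp90), LOC101900572 (tubulin-specific chaperone E) and LOC101891411 (nucleoplasmin-like), with log2 fold changes of 0.37, 0.44, 0.33, 0.30 and -0.29. Endoplasmin stood at 620.5, 371.7 and 317.0 CPM in dsMdCht9 and at 312.0, 333.3 and 321.8 CPM in dsGFP, high in dsMdCht9 replicate 1.

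LOC101901237 (heat shock factor protein, the transcription factor of the heat shock response) stood at 43.7, 69.5 and 63.0 CPM in dsMdCht9 and at 55.4, 56.7 and 61.0 CPM in dsGFP, so its RNA in dsMdCht9 replicate 3 was within the range of the other libraries. The gene hsp20, described as protein lethal(2)essential for life, stood at 309.5, 398.4 and 205.6 CPM in dsMdCht9 and at 420.5, 366.7 and 260.6 CPM in dsGFP and had no excess. In the network list 1 gene had a single-library excess, LOC101896712 (tubulin-specific chaperone A), at 45.5, 37.7 and 148.1 CPM in dsMdCht9 and at 37.5, 62.5 and 50.7 CPM in dsGFP, again in dsMdCht9 replicate 3.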

How the data were processed

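RNA-seq of 3 dsMdCht9 and 3 dsGFP samples was analysed, grouped by their titles. Total RNA (3 µg a sample) was isolated with Trizol, per the labels' protocols. One phrase of the series description names another tissue, and the sample labels, whole body, were followed. Raw read counts of every gene and sample were deposited, per the file headers. The submitters' processing notes name HISAT2 2.1.0, StringTie 1.3.2d and HTSeq 0.6.0. For the genome build, the use of strand and the treatment of reads with several matches, the entry is: not given in the sources used here. Beside them the authors deposited a normalized mean signal, a ratio of dsMdCht9 to dsGFP with its log2, and p-values. The mean signal was recomputed with median-of-ratios size factors to within 5.2e-10. The authors' deposited table marks as significant a p under 0.05 with a change over 1.5-fold.

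Counts were filtered (filterByExpr), scaled by the trimmed mean of M-values and tested with edgeR 4.0.16 (quasi-likelihood, robust, two-sided) in R 4.3.3, with Benjamini-Hochberg adjustment over 10644 genes and a threshold of 0.05. DESeq2 1.42.0, limma-voom 3.58.1, other scalings and filters, the replicate block and each sample left out were alternatives. The fits were tested on simulated data. Samples of equal number deviated together from their group means, with correlations of 0.24, 0.39 and 0.65 for numbers 1, 2 and 3, so by the threshold of 0.1 set for each pair the numbers were taken as pairing the samples. This pairing comes from the data and the shared numbers of the titles. Between unlike numbers, dsMdCht9 replicate 2 and dsGFP replicate 1 correlated at 0.32, above the 0.24 of number 1. Numbers 1 and 2 are thus not clearly told apart by these values. Statements on libraries of equal number, and p-values with the replicate number as a block, rest on this pairing.

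The members, families, lists and tests were chosen with earlier results of these data known. Families follow description patterns, and 9 assignments were corrected from the annotated domain or description after the values were seen. Genes were described by name if they belong to the inducible Hsp70, Hsp90 or small heat shock lists, had the highest level or smallest p of their family, an unadjusted p under 0.05 or a single-library excess. LOC101887458, LOC101889504, LOC101890032, LOC101891015, LOC101892285, LOC101892453, LOC101894871, LOC101896810, LOC101897597, LOC101898288, LOC101898786, LOC101899256 and LOC101901328, and in the wider network heat shock factor, hsp20 and LOC101896712, were added after their values were seen. Gene names of 70 of the 76 were found in the RefSeq gene table, which is of another assembly, so positions are those of the deposited table.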

Additional observations from a re-analysis of the deposited data

How the results depend on the processing

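The count of 0 chaperone genes at an adjusted p under 0.05 held under every alternative run with edgeR, DESeq2 and limma-voom. DESeq2 without the block gave no p-value for 7 chaperone genes with the excess, so its count does not cover them. Over the whole table DESeq2 called 13 genes and, with the replicate block, 87, against 0 by edgeR, where 381 genes had an unadjusted p under 0.05. The count of chaperone genes at an unadjusted p under 0.05, 3 by edgeR, was 5 by DESeq2 and 7 with the replicate block in either tool, and 0 to 12 with 1 library left out, 1 without dsMdCht9 replicate 3, 0 without dsGFP replicate 1, 5 without dsMdCht9 replicate 1, 12 without dsMdCht9 replicate 2 and 7 without dsGFP replicate 3. The block changed no adjusted call of a chaperone gene. The median log2 fold change of the chaperone genes, 0.03, was 0.17 with library size alone, which shifts the median of all genes by 0.12.

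The inducible median of 2.03 ranged from 0.00 (without dsMdCht9 replicate 3) to 2.77 with 1 library left out and was 0.15 without both libraries numbered 3. It was 1.37 with the family patterns as first written, an alternative added after the data were seen, 0.95 by limma-voom and 1.18 with the replicate block in edgeR. The count of 13 genes with a single-library excess was 13 at a ratio of 3, 15 with library size alone, 10 at 100 reads and, as an alternative added after the data were seen, 8 with 30 reads in 2 libraries.

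Among the genes named by the selection rule, log2 fold changes that changed sign were all small or rested on 1 library. Genes outside that rule were not listed in full, and some changed sign too. With 1 library left out, LOC101896810 (Hsp60) ranged from -0.24 to 0.59 and LOC101898288 from -0.11 to 0.59. Of the genes under the rule, LOC101897314 ranged from -0.09 to 2.54 with 1 library left out, LOC101897830 from -0.57 to 2.42, LOC101898164 from -0.62 to 2.38, LOC101898687 from -1.37 to 3.23 and LOC101899033 from -0.59 to 3.12. The lowest value of each of these 5 genes under the rule came without dsMdCht9 replicate 3. LOC101897483 ranged from -0.24 to 0.42, LOC101898517 from -1.20 to 0.90, LOC101899203 from -0.49 to 0.45, CCT-zeta from -0.13 to 0.15, LOC101888337 from -0.02 to 0.93, LOC101894739 from -0.33 to 0.30 and LOC101892958 from -0.07 to 0.29. Without both libraries numbered 3, LOC101897830 was at -0.11, LOC101898164 at -0.36, LOC101898687 at -0.97, LOC101897483 at 0.22 and LOC101899203 at -0.49. In the same setting LOC101897314 was at 0.41 and LOC101899033 at 0.09. LOC101897483 was at 0.02 by limma-voom and with the replicate block in edgeR and DESeq2, and at 0.07 with library size alone. LOC101899203 was at -0.17 by limma-voom, -0.08 with the replicate block in edgeR and -0.15 with it in DESeq2. LOC101894739 was at 0.01 with the replicate block in edgeR, 0.15 with library size alone and 0.00 at 5 CPM in 3 samples. Other than the leaving out of libraries, the cause of these moves was not tested. At 5 CPM in 3 samples most small heat shock genes with the excess have no value, and 5 inducible genes had too few reads for the test.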

Other observations

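Outside the 76 genes, 21 genes were also at least 2 times as high in dsMdCht9 replicate 3 as in any other library. They include LOC101896712, tubulin-specific chaperone A, and were picked for this after the values were seen. At 3 times or more 7 remained, and none of the 7 carries a chaperone description. LOC101897228, a long non-coding RNA, had the most reads of the 7, with 234, 339 and 1292 in dsMdCht9 and 104, 128 and 335 in dsGFP, which made the third dsMdCht9 library 3.61 times the next. A histone gene of the H3 kind, LOC105261427, had 3, 2 and 34 reads in dsMdCht9 and 2, 0 and 8 in dsGFP. A gene of the H2B kind, LOC101895913, had 11, 11 and 64 reads in dsMdCht9 and 17, 13 and 10 in dsGFP. Both genes have few reads.

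Among the genes at 2 to 3 times, LOC101896013 (insulin-like, a peptide hormone) stood at 3.07, 2.96 and 19.2 CPM in dsMdCht9 and at 3.46, 6.07 and 9.49 CPM in dsGFP. LOC101895802, an uncharacterized protein, stood at 57.2, 37.4 and 149.2 CPM in dsMdCht9 and at 15.9, 33.2 and 48.6 CPM in dsGFP. LOC101892251 (probable maleylacetoacetate isomerase 2) stood at 11.6, 10.6 and 36.1 CPM in dsMdCht9 and at 16.7, 14.7 and 11.9 CPM in dsGFP. At the limit of 2 times, all 13 chaperone genes with a single-library excess had it in dsMdCht9 replicate 3. Over the whole table, 42 genes had one in dsGFP replicate 3 and 29 in dsGFP replicate 1. Below that limit, LOC101901661, Hsp10 and endoplasmin were highest in dsMdCht9 replicate 1, at 1.84, 1.74 and 1.67 times the next library.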
